A study of Danio rerio with 6 samples.

Results

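Histone genes were followed in pooled zebrafish larvae reared in leachate of tire wear particles (TWP), named TWP 700, and in pools kept in the surfactant control, 0.001% bovine serum albumin. The genes were taken by their symbols and descriptions: rows named as histones H1, H2A, H2B, H3 or H4 were kept, and enzymes that modify histones, chaperones and binding proteins were left out. This gave 40 of the 24826 genes in the deposited table. A symbol or description that names a variant form placed a gene as a variant. Other histone genes were placed as replication type by default, without regard to their gene order or mRNA ends. Of the 40 genes, 25 were placed as replication type and 12 as variants. Another 3 were set apart because their descriptions name no placed histone: the H4 gene transcription factor hinfp, the dioxygenase gene alkbh1 and LOC100333163, described as H3.v1-like.

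All larvae were wild type and were exposed from 4 to 168 h after fertilization, with a move to fresh medium in clean dishes at 72 h. Each group had 3 samples, described as biological replicates, and each sample was a pool of 80 whole larvae. The titles use 700 as a treadwear grade and the series' design text as a concentration, so it is kept here as a name. Whether the leachate pools also held albumin is not recorded. The other leachates of the study were not analysed here. Samples are called leachate 1 to 3 and control 1 to 3.

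Histones are the proteins around which DNA is wound. H2A, H2B, H3 and H4 form the nucleosome core and H1 binds the linker DNA between cores. Replication-type histone genes lie in clusters of many near-identical copies, are transcribed mainly in S phase, and in animals give mRNAs that end in a stem-loop in place of a poly(A) tail. Variant genes are mostly single genes with polyadenylated mRNAs that are also made outside S phase: H3.3 and H2A.Z replace core histones at genes, macroH2A is enriched in repressed chromatin, H2A.X is the form phosphorylated at DNA breaks, CENP-A marks centromeres, and H1.0 accumulates in cells that have left the cell cycle. The libraries were made from total RNA depleted of ribosomal RNA, so mRNAs without a poly(A) tail were not removed by a selection step.

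The pools held between 37030725 and 48431952 counts each. Levels of 1 gene across pools are given as CPM, its counts scaled to the TMM-adjusted library size, and levels of different genes are compared in the deposited TPM, which also account for length. In pools of whole larvae, fewer cells of a type and less RNA per cell cannot be told apart. Tissue markers were present throughout: the 4 skeletal muscle genes summed to between 30228 and 37619 CPM in leachate pools and between 36463 and 43613 CPM in control pools, and the 3 liver genes to between 2242 and 2693 CPM in leachate pools and between 1727 and 2234 CPM in control pools. The 3 lens genes summed to between 1341 and 1931 CPM in leachate pools and between 2394 and 3469 CPM in control pools. Of these genes 2 were called lower (0 without leachate 3), beside 7.29% of all genes. The part of the lens in the histone values was not tested. On the second principal component control 2 (-43.0) and leachate 1 (-17.9) lay apart from the other pools, which lay between 5.98 and 31.0, so the main counts are also given without both. The p-values set the group difference against the spread between these pools. Nothing says that pools came from separate clutches, so whether this spread holds differences between clutches is unknown.

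Of the 25 replication-type genes, 12 rose and 0 fell at an adjusted p under 0.05 in edgeR's quasi-likelihood test. This is 48% higher calls, where 7.87% of the 23761 genes tested were called higher and 7.29% lower. All 25 passed the filter on low counts. Their median log2 fold change was 0.58, beside -0.0026 for all genes tested, and 24 of 25 had a positive value, as had 49.7% of all genes. Groups did not overlap, with leachate higher, in 18 of the 25, beside 17.9% of all genes. At an unadjusted p under 0.05, 20 were higher and 0 lower, and DESeq2 called 19 higher and 0 lower.

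The count of calls depended on single pools. Replication-type calls were 3 without leachate 1, 6 without leachate 2, 3 without control 1 and 21 without control 2. With control 2 and leachate 1 both left out they were 18. Among the 25 genes, control 1 held the lowest value in 22 and leachate 1 the highest in 19. The median log2 fold change kept its sign throughout and lay between 0.40 (without control 1) and 0.72 (without control 2) with 1 pool left out.

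**Figure D1:**
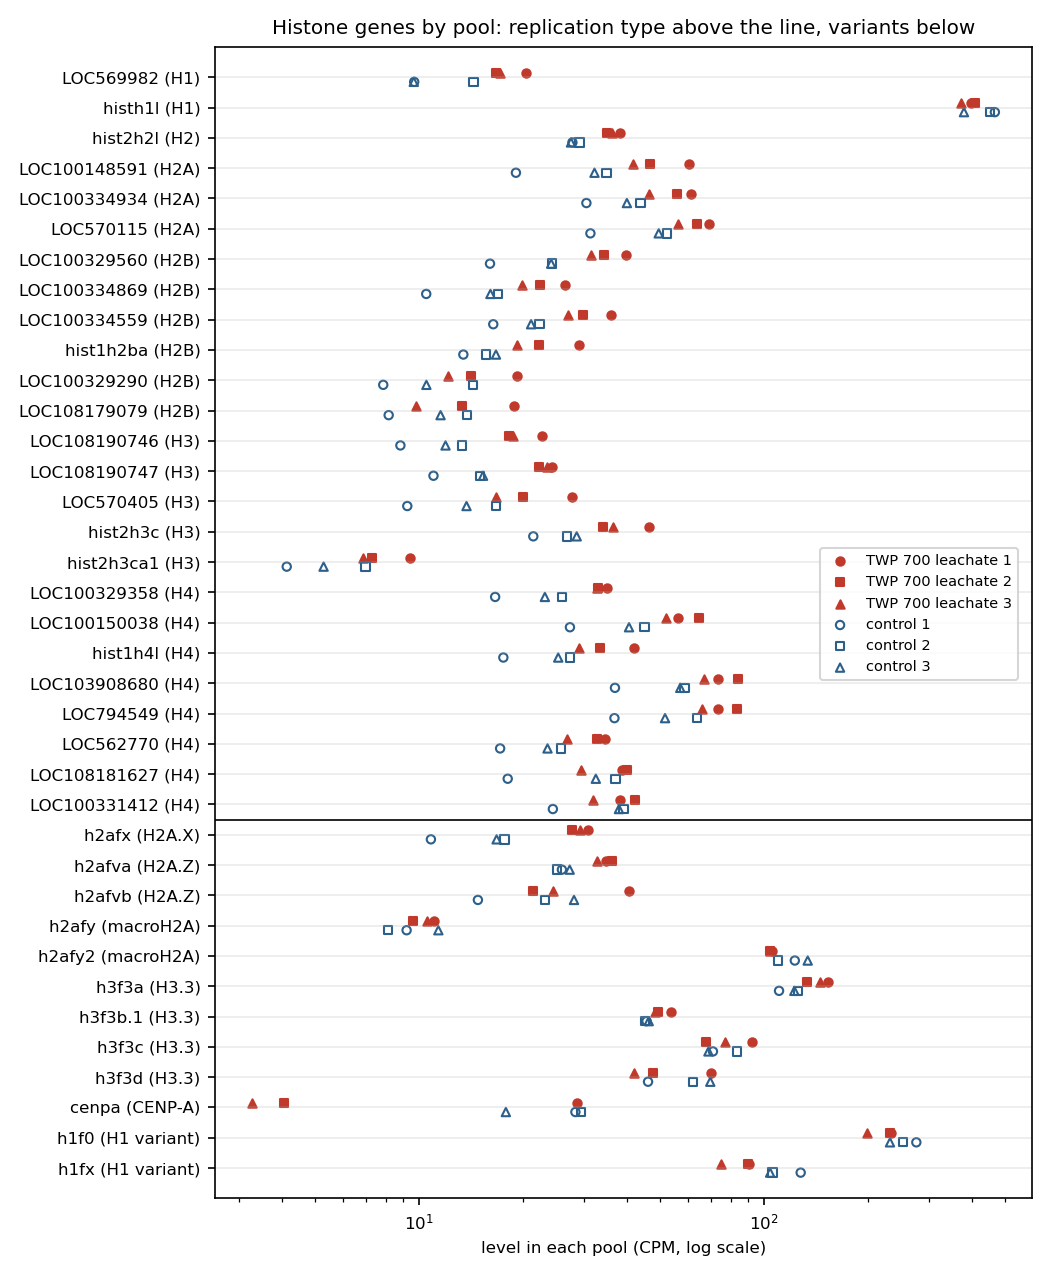
Level of each of the 25 replication-type and 12 variant genes (rows, family in brackets) in each of the 6 pools, in CPM on a log axis; filled red symbols are leachate pools and open blue symbols control pools. Replication-type genes are above the line, and control 1 (open circle) is the lowest point in 22 of these 25 rows.

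Of 5 H3 genes, 3 rose (60%, beside 7.87% of all genes), with a median log2 fold change of 0.70. Differences between families were not tested. LOC108190746 was at 22.7, 18.3 and 18.7 CPM in leachate 1 to 3, against 8.83, 13.3 and 11.9 CPM in control 1 to 3 (log2 0.81 ± 0.16 SE, edgeR adjusted p = 0.00664). This was the largest log2 fold change of the replication type, and every leachate pool lay above every control pool. LOC108190747 was at 24.4, 22.3 and 23.5 CPM in leachate pools, against 11.01, 15.03 and 15.3 CPM in control pools (log2 0.76 ± 0.14, edgeR adjusted p = 0.00446). Leachate pools lay close together and above all controls. Of the 12 replication-type calls, those of LOC108190746 and LOC108190747 held under all 17 alternative fits and each of the others was lost in at least 1. Both genes overlap the H2A gene LOC570115 in the RefSeq gene table described below, and LOC108190747 also overlaps caap1. How reads were divided between these genes was not tested. hist2h3c, the most abundant H3 gene of this type by TPM, was at 46.5, 34.0 and 36.4 CPM in leachate pools, against 21.4, 26.8 and 28.6 CPM in control pools (log2 0.61 ± 0.15, edgeR adjusted p = 0.0186). Its groups did not overlap, and the call was lost with the replicate block (adjusted p = 0.0582), without leachate 1 (0.0550) and without control 1 (0.0891). LOC570405 had a log2 fold change of 0.70 and hist2h3ca1 of 0.53, with adjusted p of 0.0915 and 0.107 in edgeR, and in both the groups overlapped.

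Of 6 H2B genes, 4 rose (66.7%, beside 7.87% of all genes), all with leachate pools above control pools. The median log2 fold change of the 6 was 0.63. LOC100329560 was at 39.8, 34.3 and 31.4 CPM in leachate pools, against 16.1, 24.3 and 24.1 CPM in control pools (log2 0.71 ± 0.16, edgeR adjusted p = 0.0154). LOC100334559, the most abundant H2B gene by TPM, was at 36.0, 29.9 and 27.1 CPM in leachate pools, against 16.4, 22.4 and 21.1 CPM in control pools (log2 0.63 ± 0.15, edgeR adjusted p = 0.0145). Each of these calls was lost in 1 alternative, that of LOC100329560 without leachate 1 (0.0526) and that of LOC100334559 without control 1 (0.0702). LOC100334869 (22.97 ± 3.33 CPM in leachate and 14.5 ± 3.5 CPM in control pools, SD, n = 3 each; log2 0.67) and hist1h2ba (23.5 ± 5.06 and 15.2 ± 1.66 CPM; log2 0.63) were the other two, each with a call lost in 4 alternatives. LOC100329290 (log2 0.48) and LOC108179079 (log2 0.33) did not pass, and control 2 lay inside the leachate range in both. In LOC108179079 control 3 (11.5 CPM) lay inside that range as well.

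The H2A genes taken were 3, of which 1 rose (33.3%, beside 7.87% of all genes). LOC100334934 rose, with its call lost in 5 of the 17 alternatives: it was at 61.6, 55.9 and 46.4 CPM in leachate pools, against 30.5, 43.8 and 40.0 CPM in control pools (log2 0.52 ± 0.15, edgeR adjusted p = 0.0404). LOC100148591 was at 60.6, 46.6 and 41.6 CPM in leachate pools, against 19.1, 34.9 and 32.2 CPM in control pools (log2 0.79 ± 0.23, edgeR adjusted p = 0.0566), and did not pass. The low value of control 1 widened the control range of both genes. LOC570115, the most abundant H2A gene by TPM, had a log2 fold change of 0.51 and an edgeR adjusted p of 0.0816. In all 3 the groups did not overlap, with leachate higher, as in 17.9% of all genes. hist2h2l, described as an H2 histone without its type, rose by a smaller step, with 38.3, 35.1 and 36.2 CPM in leachate pools, against 27.8, 29.2 and 27.6 CPM in control pools (log2 0.38 ± 0.10, edgeR adjusted p = 0.0269). Its call was lost in 6 of the 17 alternatives.

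H4 genes were the largest family, with 8 genes and 2 calls (25%, beside 7.87% of all genes). LOC100329358 was at 34.99, 33.0 and 32.8 CPM in leachate pools, against 16.6, 25.9 and 23.2 CPM in control pools (log2 0.62 ± 0.15, edgeR adjusted p = 0.0182). LOC100150038 was at 56.2, 64.8 and 52.1 CPM in leachate pools, against 27.4, 45.0 and 40.6 CPM in control pools (log2 0.62 ± 0.17, edgeR adjusted p = 0.0362). Both calls were lost without control 1 or without any of the leachate pools, and that of LOC100150038 also without control 3. All 8 had a positive log2 fold change, as had 49.7% of all genes. In 6 of them the groups did not overlap, with leachate higher, as in 17.9% of all genes. Of these 6, the 4 that did not pass had edgeR adjusted p between 0.0519 and 0.0675. The lowest value of this family, and of the replication type apart from histh1l, was that of LOC100331412, with 38.2, 42.4 and 31.95 CPM in leachate pools, against 24.4, 39.1 and 38.0 CPM in control pools (log2 0.15 ± 0.18, edgeR adjusted p = 0.632). LOC108181627, the most abundant H4 gene by TPM, was at 124 ± 27.0 TPM in leachate pools and 87.7 ± 28.6 TPM in control pools (SD, n = 3 each). Its fitted log2 fold change was 0.31 with overlapping groups.

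Some H4 genes had nearly equal counts. The counts of LOC794549 and LOC103908680 differed by at most 9.67% in any pool, with 3266 and 3272 counts in leachate 1 and 1774 and 1780 counts in control 1. Their log2 fold changes were both 0.55, and their mean TPM over the 6 pools were 77.0 and 31.6. The sources used here do not say how reads that match several copies were counted, so values of single copies are uncertain. Whether this pair shares reads was not tested.

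The 2 H1 genes placed as replication type had fold changes of opposite sign. LOC569982 was at 20.4, 16.7 and 17.1 CPM in leachate pools, against 9.68, 14.4 and 9.65 CPM in control pools (log2 0.69 ± 0.17, edgeR adjusted p = 0.0189), so it rose without overlap; the call was lost in 3 of the 17 alternatives. histh1l was at 397, 408 and 374 CPM in leachate pools, against 467, 452 and 380 CPM in control pools (log2 -0.14 ± 0.14, edgeR adjusted p = 0.56). It was the one gene of the type with a negative fold change, and its value lay between -0.23 and 0.04 over the alternatives. At a mean of 370.0 TPM over the 6 pools it was the most abundant histone gene taken, ahead of h3f3a at 227 TPM. histh1l made up 36.5% of the summed CPM of its type, so sums below are also given without it.

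**Figure D2:**
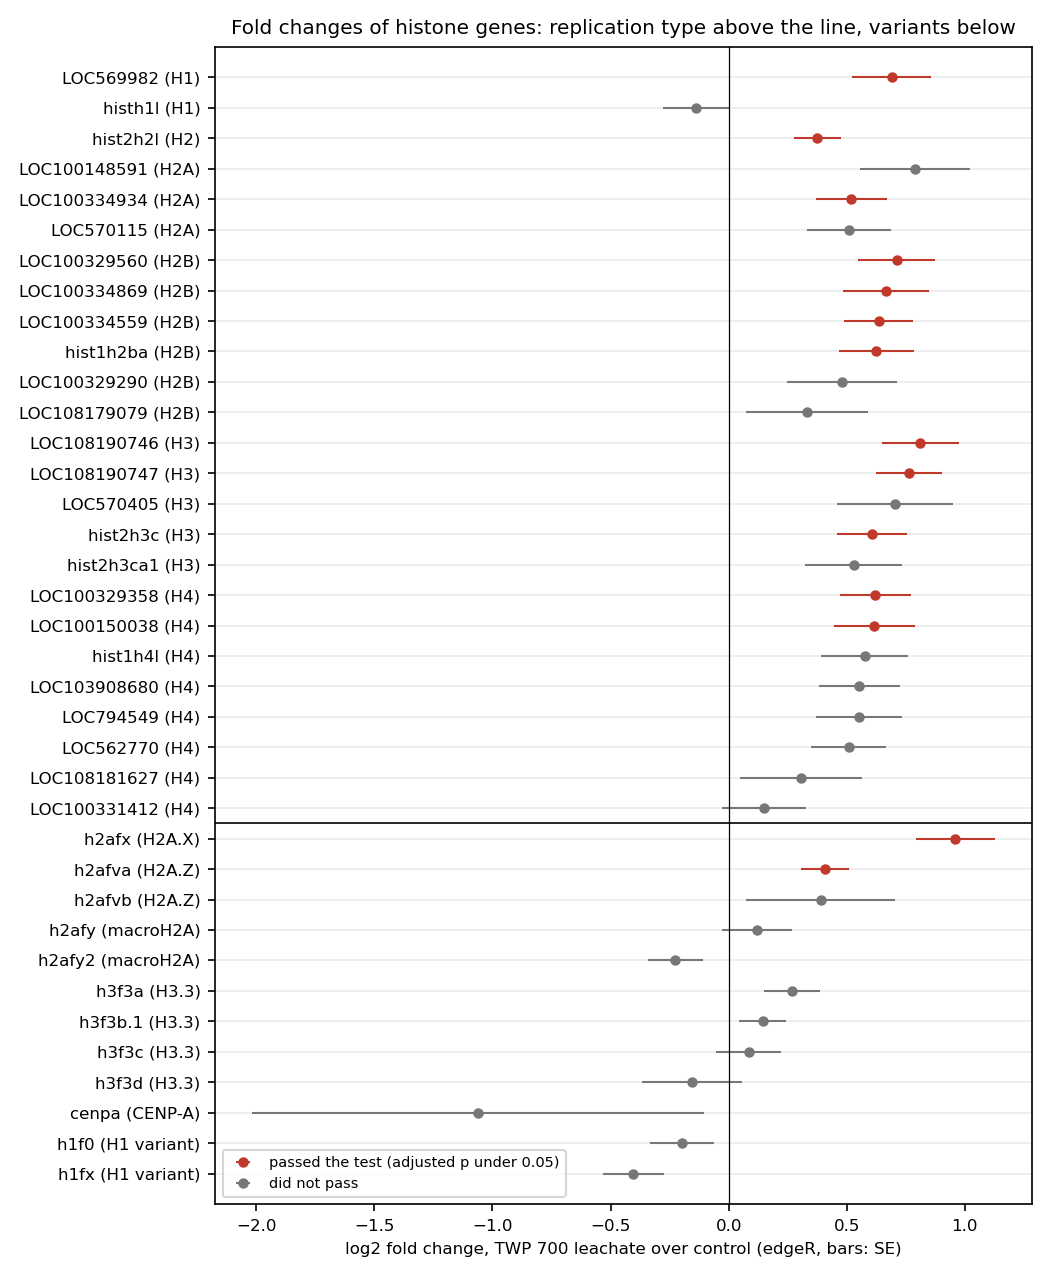
Log2 fold change of leachate over control for each replication-type and variant gene (rows), with bars for the SE from edgeR. Red points passed the test, 12 above the line (replication type) and 2 below it (h2afx and h2afva), and histh1l is the one point left of 0 above the line.

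Many of the replication-type genes were neighbours. In the RefSeq gene table of the assembly GRCz12tu, which is not the build named by the submitters and is used here for names and order only, 34 of the 40 genes were found. A run of 18 consecutive genes held 12 replication-type genes: LOC100329290, LOC100329358, LOC100329560, LOC569982, LOC100148591, LOC100150038, LOC108190747, LOC570115, LOC100334869, LOC108190746, LOC100334559 and LOC794549. It carried all 5 histone classes, H1, H2A, H2B, H3 and H4. In this run 12 of 12 had a positive log2 fold change, between 0.48 and 0.81 with a median of 0.65. Of them 8 were called higher (66.7%, beside 7.87% of all genes). Of the 25 replication-type genes, 20 were found in that table, so the 13 genes not in the run include some without a known place. Among these 13, 4 were called higher (30.8%) and the median was 0.52. The called genes LOC100334934 and hist1h2ba are among those not found. The difference between the run and the other copies was not tested, and 9 of the 20 replication-type genes and 7 of the 12 variants placed overlap another gene in that table. Of these 9, all but LOC108179079 lie in the run. Within the run LOC570115 overlaps LOC108190747, LOC100334869 and LOC108190746, and LOC100334559 overlaps LOC794549. Whether these run members share reads was not tested, so they cannot be taken as separate measurements.

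h2afx, the H2A.X gene taken, had the largest log2 fold change of the genes placed. Further H2A.X genes, not taken by symbol and given below, had values of 0.91 (si:ch73-368j24.15) and 0.41 (zgc:101846). The H2A gene zgc:165551, also not taken, had 1.13. h2afx was at 30.9, 27.7 and 29.3 CPM in leachate pools, against 10.8, 17.7 and 16.8 CPM in control pools (log2 0.96 ± 0.17, edgeR adjusted p = 0.00389). The leachate pools lay close together and above every control. The call held under all 17 alternatives, with a log2 fold change between 0.77 and 1.16. In the RefSeq table h2afx overlaps c2cd2l, and how reads were divided between them was not tested. In mammals this gene gives both a stem-loop and a polyadenylated mRNA, and when it is counted with the replication type, 13 of 26 genes rose.

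Among the 12 variants, 2 rose and 0 fell, or 16.7% higher calls beside 7.87% of all genes. At an unadjusted p under 0.05, 1 variant was lower, and DESeq2 called 1 lower where limma-voom called 0. The median log2 fold change of variants was 0.10, and 7 of 12 were positive. Beside h2afx, the H2A.Z gene h2afva rose, at 34.9, 36.3 and 32.7 CPM in leachate pools, against 25.9, 25.1 and 27.3 CPM in control pools (log2 0.41 ± 0.10, edgeR adjusted p = 0.0212). Leachate pools were above control pools throughout, and the call was lost with the replicate block (0.0653), without leachate 2 (0.0915), without leachate 3 (0.0521) and without control 1 (0.0865). The second H2A.Z gene, h2afvb, was at 40.6, 21.4 and 24.4 CPM in leachate pools, against 14.8, 23.1 and 28.1 CPM in control pools (log2 0.39 ± 0.31, edgeR adjusted p = 0.474). Leachate 1 alone stood above the control range.

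None of the 4 genes of H3.3, the replacement form of H3, passed the test in edgeR, and at an unadjusted p under 0.05 there was 1, h3f3a. h3f3a, the most abundant variant, was at 153, 134 and 145 CPM in leachate pools, against 111, 125 and 122 CPM in control pools (log2 0.27 ± 0.12, edgeR adjusted p = 0.152). Its groups did not overlap, as in h3f3b.1 (log2 0.14). h3f3c (log2 0.08) and h3f3d (log2 -0.15) overlapped, with the value of h3f3d in leachate 1 (70.4 CPM) above the other leachate pools (47.6 and 42.0 CPM). DESeq2 and limma-voom also called 0 of these 4, and limma on log2 TPM called h3f3a (0.0408).

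None of the 4 linker variant and macroH2A genes passed the test in edgeR, and at an unadjusted p under 0.05 there was 1, h1fx. h1fx, the gene for H1.10, was at 90.5, 89.9 and 75.0 CPM in leachate pools, against 128, 106 and 104 CPM in control pools (log2 -0.40 ± 0.13, edgeR adjusted p = 0.0588). Every leachate pool lay below every control pool, where 17.1% of all genes do, and it did not pass. It passed with DESeq2 (0.0362), when control 2 was left out (0.0329), and when leachate 1 was left out as well (0.00648). h1f0, the gene for H1.0 and the second most abundant variant, was at 234, 231 and 198 CPM in leachate pools, against 276, 253 and 232 CPM in control pools (log2 -0.20 ± 0.13, edgeR adjusted p = 0.363), with leachate 1 inside the control range. The macroH2A gene h2afy2 was at 105, 104 and 104 CPM in leachate pools, against 123, 110 and 134 CPM in control pools (log2 -0.23 ± 0.12, edgeR adjusted p = 0.226). The groups of h2afy2 did not overlap, leachate being lower, and it passed when control 2 and leachate 1 were both left out (0.0314). The lower-expressed h2afy was at 10.4 ± 0.746 CPM in leachate and 9.56 ± 1.66 CPM in control pools (SD, n = 3 each).

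cenpa, which encodes the centromere histone CENP-A, varied widely among the leachate pools and did not pass. It was at 28.8, 4.06 and 3.28 CPM in leachate pools, against 28.4, 29.4 and 17.8 CPM in control pools (log2 -1.06 ± 0.96, edgeR adjusted p = 0.541). In the RefSeq table cenpa overlaps the selenoprotein H gene, seph in the deposited table. seph was at 0.518, 35.7 and 35.9 CPM in leachate pools, against 0.436, 0.49 and 19.0 CPM in control pools. Pools high in one were low in the other, whatever their group, apart from control 3, where the levels were similar. cenpa also overlaps ssuh2rs1, which was at 47.2, 47.8 and 45.2 CPM in leachate pools, against 26.5, 27.6 and 26.0 CPM in control pools (log2 0.81, edgeR adjusted p = 4.43e-04) and rose without overlap of the groups. The sum of cenpa and seph was 29.3, 39.7 and 39.2 CPM in leachate pools, against 28.8, 29.9 and 36.9 CPM in control pools, and here the groups overlapped. Without leachate 1 cenpa passed as lower (log2 -2.78, edgeR adjusted p = 5.08e-04), and with control 2 left out too its log2 fold change was -2.65 (3.50e-05). How the counting divided reads between the overlapping genes was not tested.

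**Figure D3:**
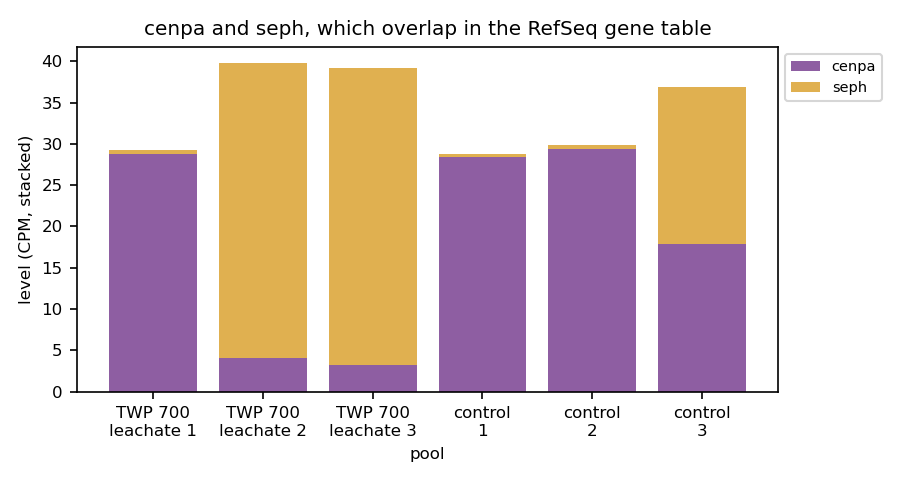
Levels of cenpa (purple) and seph (yellow) in each pool, stacked, in CPM. The purple part falls to 4.06 and 3.28 CPM in leachate 2 and 3 where the yellow part is 35.7 and 35.9 CPM, and control 3 holds 17.8 and 19.0 CPM.

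Per length, the sums over families gave the balance between the classes. Summed TPM of the replication-type H3 genes was 235, 148 and 152 in leachate pools, against 86.2, 115 and 96.9 in control pools. This was 1.8-fold in the means, and 1.61-fold in CPM. The H3.3 genes summed to 581, 395 and 415 TPM in leachate pools, against 360, 400 and 342 TPM in control pools. This was 1.26-fold, and 1.09-fold in CPM. Of the summed TPM of replication-type H3 and H3.3 genes, the replication type thus made up 28.8%, 27.2% and 26.8% in leachate pools. In control pools it made up 19.3%, 22.3% and 22.1%. These shares did not overlap between the groups. Of the summed TPM of replication-type H2A and H2A.Z genes, the replication type made up 71.4%, 74.4% and 71.7% in leachate pools. In control pools it made up 67.6%, 73.6% and 69.3%, and here the groups overlapped. H2A.X, macroH2A and hist2h2l are not part of this share. The shares cover the genes taken and no other copies.

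The other core families also had higher mean sums on the TPM scale in leachate pools. H2A genes of the replication type summed to 273 ± 62.4 TPM in leachate and 163 ± 33.7 TPM in control pools. H2B genes summed to 199.9 ± 60.4 and 117 ± 22.6 TPM, and H4 genes to 604 ± 112 and 392.1 ± 95.3 TPM in leachate and control pools (SD, n = 3 each). In the H2A and H2B sums the groups did not overlap; in H4 control 2 (491 TPM) lay just above leachate 3 (490.3 TPM). The whole replication type summed to 1339, 1278 and 1128 CPM in leachate pools, against 907, 1135 and 1006 CPM in control pools, 1.23-fold. Without histh1l it was 942, 870 and 755 CPM against 441, 684 and 626 CPM, 1.47-fold. Variants summed to 946, 822 and 789 CPM in leachate pools, against 889, 888 and 879 CPM in control pools, 0.963-fold, with leachate 1 above and the others below the controls.

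**Figure D4:**
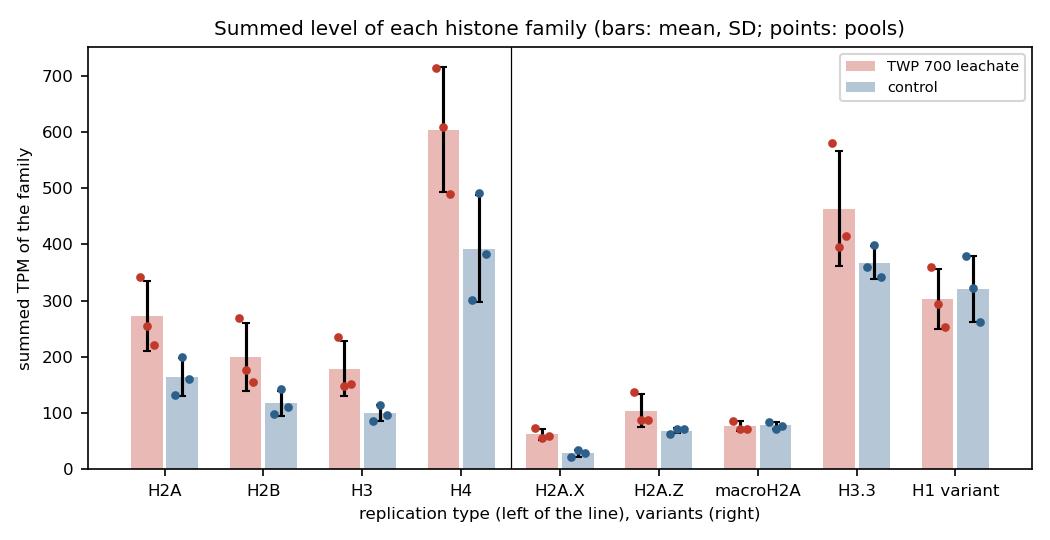
Summed TPM of each histone family, leaving out replication-type H1, hist2h2l and CENP-A, with leachate left of control; bars are means with SD and points are the 3 pools of each group. H3 replication-type sums lie at 148 TPM and above in leachate pools and at 115 TPM and below in control pools. The H1 variant sums overlap in TPM. In CPM they were 325, 321 and 273 in leachate pools, against 404, 359 and 336 in control pools, without overlap. Scaled to library totals, the H1 variant sums overlapped again.

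Other histone genes in the table carry clone names and descriptions without the word histone, so the symbol rule did not take them. By their RefSeq symbols there were 13, chosen by name after the values of the others were seen. All 13 had a positive log2 fold change, as had 49.7% of all genes, with a median of 0.66. In edgeR 9 were called higher (69.2%, beside 7.87% of all genes) and 0 lower, and with DESeq2 9 and 0. The count was 2 without leachate 1, 4 without control 1, 5 without leachate 2 or without leachate 3, 12 without control 2, and 12 with leachate 1 left out as well. The H2A gene zgc:165551 (hist1h2a6 in RefSeq) was at 27.0, 19.5 and 19.7 CPM in leachate pools, against 7.23, 14.4 and 8.68 CPM in control pools (log2 1.13 ± 0.26, edgeR adjusted p = 0.0210). Further H2A.X genes were among them: si:ch73-368j24.15 (h2ax2) was at 16.5 ± 2.7 CPM in leachate and 8.77 ± 2.26 CPM in control pools (SD, n = 3 each; log2 0.91, edgeR adjusted p = 0.00983). zgc:101846 (h2ax1) was at 121, 125 and 122 CPM in leachate pools, against 85.1, 94.1 and 99.0 CPM in control pools (log2 0.41 ± 0.11, edgeR adjusted p = 0.0331). The H2A gene zgc:173652 (hist1h2a3, log2 0.76) rose, and so did the H1 genes si:ch1073-159d7.7 (h1l1, log2 0.86) and si:ch73-36p18.1 (histh1l3, log2 0.73); the difference of the H1 genes from histh1l was not tested. zgc:101846 and si:ch73-36p18.1 were picked after their values were seen.

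Genes that make, process and load histones were read from lists written for this comparison. In the list of histone mRNA transcription and processing, 9 of 27 measured genes rose (33.3%, beside 7.87% of all genes) and 0 fell in edgeR, 0 were lower at an unadjusted p under 0.05, and DESeq2 and limma-voom called 9 higher and 0 lower; the median log2 fold change was 0.25. slbp, whose product binds the stem-loop of histone mRNAs, was at 10.2, 7.41 and 6.49 CPM in leachate pools, against 4.71, 4.82 and 4.12 CPM in control pools (log2 0.82 ± 0.19, edgeR adjusted p = 0.0134). The groups did not overlap. The largest rises were in the S phase entry genes e2f1 (log2 1.94), cdk2 (log2 1.33), ccne2 (log2 1.19) and ccne1 (log2 0.91). Also called higher in this list were e2f3 (log2 0.80, edgeR adjusted p = 0.0054) and srrt (log2 0.71, edgeR adjusted p = 0.0241). So were snrpd3l (log2 0.58, edgeR adjusted p = 0.00586) and snrpb (log2 0.37, edgeR adjusted p = 0.0491). Among the processing genes, lsm10 (log2 -0.35), lsm11 (log2 0.53), eri1 (log2 0.26), sympk (log2 0.01) and cstf2 (log2 -0.19) did not pass. These processing genes, and e2f3, srrt, snrpd3l and snrpb, were picked after their values were seen. npat, which in mammals switches on the replication-type genes, was at 13.3 ± 1.55 CPM in leachate and 13.0 ± 2.16 CPM in control pools (SD, n = 3 each; log2 0.04), and casp8ap2 had a log2 fold change of -0.04; slbp, npat and casp8ap2 were picked after their values were seen.

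Of the histone chaperones and deposition factors, 10 of 34 rose (29.4%, beside 7.87% of all genes) and 0 fell in edgeR, 0 were lower at an unadjusted p under 0.05, and DESeq2 and limma-voom called 11 higher and 0 lower; the median log2 fold change was 0.27. The chromatin assembly factor genes chaf1b and chaf1a, whose products deposit H3 and H4 behind the replication fork, had log2 fold changes of 1.85 ± 0.30 and 1.47 ± 0.25 (edgeR adjusted p = 0.00241 and 0.00295). mcm2, a helicase subunit that also holds histones, was at 35.2, 25.0 and 23.4 CPM in leachate pools, against 5.63, 8.93 and 7.73 CPM in control pools (log2 1.91). asf1ba, an H3 and H4 chaperone gene, rose (log2 1.26), as did nasp (log2 0.91). asf1bb did not pass (log2 0.65, edgeR adjusted p = 0.0559), nor did supt16h (log2 -0.01), hat1 (log2 0.23) and ipo4 (log2 0.32). The chaperone genes of H3.3 did not pass: hira was at 16.5 ± 0.338 CPM in leachate and 15.9 ± 0.870 CPM in control pools (SD, n = 3 each; log2 0.05), and daxx (log2 0.23) and atrx (log2 0.26) had edgeR adjusted p of 0.246 and 0.183. In daxx and atrx every leachate pool lay above every control pool, as in 17.9% of all genes. The difference between the H3.3 chaperone genes and the others was not tested. nasp, rbbp4, ssrp1a, ruvbl2, yeats4, ruvbl1, asf1bb, supt16h, hat1, ipo4, hira, daxx and atrx were picked after their values were seen.

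Replication genes themselves showed larger steps. In the S phase and DNA replication list, which shares slbp, ccne2 and mcm2 with the lists above, 38 of 43 genes rose (88.4%, beside 7.87% of all genes) and 0 fell in edgeR, 0 were lower at an unadjusted p under 0.05, and DESeq2 and limma-voom called 38 higher and 0 lower. All 43 had a positive log2 fold change, with a median of 1.14 beside 0.58 for the replication-type histone genes; this difference was not tested. With control 2 and leachate 1 both left out, 37 of the S phase list, 9 of the histone mRNA list and 11 of the chaperone list were called higher. With 1 pool left out, the S phase count lay between 26 (without control 1) and 40 (without control 2), and was 30 without leachate 1. The histone mRNA count then lay between 6 and 9 and the chaperone count between 9 and 11. The summed level of the list was between 603 and 808 CPM in leachate pools and between 292 and 348 CPM in control pools. gins2 (log2 2.36), mcm5 (log2 2.05), mcm4 (log2 1.97) and mcm6 (log2 1.97) had the largest values. Leachate 1 held the highest value in 40 of the 43 and control 1 the lowest in 24, so leachate 1 was high for histone and replication genes alike.

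Of 6 markers of dividing cells, 2 of which (pcna and ccna2) are also in the S phase list, pcna and ccnb1 rose. This is 33.3%, beside 7.87% of all genes. The 6 summed to between 149 and 215 CPM in leachate pools and between 69.4 and 110 CPM in control pools. Calls were 4 with DESeq2, 3 with library totals and with limma on log2 TPM, 5 without control 2, 6 with leachate 1 left out as well, and 1 without leachate 1, without leachate 2 or without control 1. Control 2 held 25.3 CPM of mki67, a marker of cycling cells, against 13.2 CPM in control 1 and 13.6 CPM in control 3, while the leachate pools held 41.2, 20.0 and 25.0 CPM. mki67 had a log2 fold change of 0.73 and did not pass (edgeR adjusted p = 0.261); it was picked after its values were seen. Germ cell markers summed to between 8.07 and 9.14 CPM in leachate pools and between 12.1 and 14.1 CPM in control pools. Their lowest count in a pool was 5. Of the 8, 1 was called lower (piwil1, log2 -0.59), beside 7.29% of all genes, and 0 higher. Lower calls were 2 with DESeq2, without leachate 1, and with control 2 and leachate 1 both left out. They were 0 with the replicate block, with library totals, with limma on log2 TPM, and without leachate 2, leachate 3, control 1 or control 2. Of 6 retinal and neural progenitor genes, 1 was called lower (rx2, log2 -1.41), beside 7.29% of all genes. The part of these cells in the histone values was not tested.

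**Figure D5:**
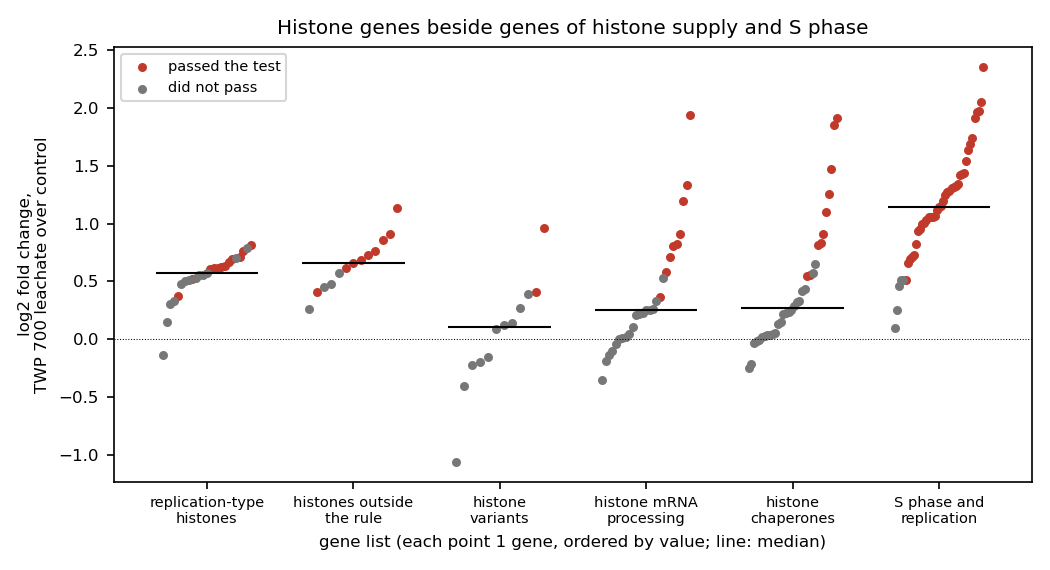
Log2 fold change of leachate over control for each gene of 6 lists, ordered by value within a list, with a line at each median. Medians are 0.58 for replication-type histones, 0.66 for histone genes outside the symbol rule, 0.10 for variants, 0.25 and 0.27 for the histone processing and chaperone lists, and 1.14 for the S phase list; red points passed the test.

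The 3 genes set apart did not pass in edgeR. hinfp was at 4.95, 5.73 and 7.73 CPM in leachate pools, against 4.82, 5.66 and 4.97 CPM in control pools (log2 0.25), and it is also counted in the histone mRNA list. alkbh1 was at 5.06 ± 0.412 CPM in leachate and 3.69 ± 0.605 CPM in control pools (SD, n = 3 each; log2 0.46, edgeR adjusted p = 0.115), and it was the 1 of the 3 with an unadjusted p under 0.05; DESeq2 called 0. LOC100333163, with between 27 and 62 counts per pool, had the lowest mean TPM of the 40 genes.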

How the data were processed

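The authors deposited read counts, TPM and FPKM per gene and sample, per the file headers. The deposited counts hold integers and were tested; the deposited TPM values account for gene length and depth; the deposited FPKM values were not used here. The submitters' processing notes list HISAT2, StringTie 2.1.3b, DESeq2 and GRCz11 with no roles, and how strand and multiply matching reads were handled is not stated there. No gene of the table has a count under 1 in any sample, so genes at 0 in a sample were not analysed here. Ribosomal RNA was depleted before library preparation, per the labels' protocols.

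The test was that of edgeR 4.0.16 under R 4.3.3 (TMM, expression filter by group, robust quasi-likelihood F test, no covariate), with Benjamini-Hochberg adjustment over 23761 genes; called means an adjusted p under 0.05. The SE is the log2 fold change divided by the square root of F. Alternatives were other scalings, filters, DESeq2 1.42.0, limma-voom (limma 3.58.1), a replicate block, and leaving out each sample in turn. Added after seeing the data were limma on log2(TPM + 0.1), leaving out control 2 and leachate 1 together, moving the 3 set-apart genes or histh1l between classes, and summed TPM. Members and lists were chosen with earlier results of these data known; of 155 listed symbols, 140 matched the table. Named are every called member, the 3 most abundant of each class or family by TPM, the largest and smallest fold changes, up to 4 called genes per list and direction by size, and genes marked as picked afterwards; other members that are named (hist2h3ca1, h3f3b.1, LOC103908680) were also picked after their values were seen. The 3 set-apart genes would count as replication type under a literal reading of the class rule.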

Additional observations from a re-analysis of the deposited data

How the results depend on the processing

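Over all genes, calls were 1871 higher and 1731 lower; they were 2809 and 868 with library totals, 796 and 692 at an adjusted p under 0.01, and between 970 and 2063 higher and 896 and 1996 lower with 1 sample left out. Lower calls were 2606 without control 2 and leachate 1 together and 666 with limma on log2 TPM. With library totals the median of all genes was 0.13, that of replication-type genes 0.72 and that of variants 0.24; with limma on log2 TPM these were 0.16, 0.75 and 0.27. Replication-type calls, 12 as reported, were 19 with DESeq2 and with limma on log2 TPM, 18 with library totals, 2 at an adjusted p under 0.01, and between 3 and 21 with 1 sample left out; 0 were lower in any alternative. Their median lay between 0.40 and 0.72 with 1 sample left out, and that of variants between 0.0089 and 0.18. Variant calls were 1 higher at an adjusted p under 0.01 and 1 with the replicate block; between 1 and 2 were higher and between 0 and 1 lower with 1 sample left out. DESeq2 called 1 variant lower, and 3 were lower without control 2 and leachate 1 together. The fold of the summed replication-type level, 1.23 in CPM, was 1.43 in TPM and 1.47 without histh1l; that of variants, 0.963, was 1.06 with library totals and 1.16 in TPM, so its direction depended on the scale. No called member reversed. Deviations of same-numbered samples correlated at -0.0465, -0.101 and 0.0307 over genes. Such correlations over all genes cannot tell whether same-numbered samples share a batch or clutch. With the replicate block 8 replication-type genes were called. Of the other markers, 2 of 4 red blood cell genes (alas2 and slc4a1a) and 1 of 3 liver genes (tfa) were called higher, 2 of 3 lens genes (crygm2d1 and cryba1b) lower, and none of 4 muscle and 2 pancreas genes in edgeR or DESeq2 (0 at an unadjusted p under 0.05). Beside these, 7.87% of all genes were called higher and 7.29% lower. Red blood cell calls were 1 without leachate 1, control 1 or control 3, and lens calls 0 without leachate 3. Pancreas genes called lower were 2 without control 2, also with leachate 1 left out. Liver calls were 2 with DESeq2, library totals, limma on log2 TPM or the replicate block, and without leachate 1 or control 3. Depth was not limiting for most members: apart from 1 set-apart gene, the lowest count was 125.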
